A study of Mus musculus with 9 samples.

Results

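Nuclear receptors are transcription factors that carry their own ligand-binding pocket, and the mouse genes described here are 44 of them: the receptors for retinoids, thyroid hormone, vitamin D, fatty acids, sterols, bile acids and steroids, with their orphan relatives. The list was drawn up by name and leaves out Esrrb, Nr0b1 and Nr5a2, the receptors that belong to the transcription factor network of naive pluripotent cells. A probe set of their own was present for 42 of the 44, among 19938 genes measured; Nr1h2 and Nr2e3 were not analysed here. Expression was measured in 3 groups of 3 arrays. Embryonic stem cells (ESCs) of strain 129 were cultured in 2i, which joins CHIR99021 (3 µM), an inhibitor of the kinase GSK3, with PD0325901 (1 µM), an inhibitor of MEK. Epiblast stem cells (EpiSCs) of strain CD1 were cultured in CHIR99021 (3 µM) with XAV939 (2 µM), which blocks tankyrase and thereby keeps Axin from being degraded (the CHIR/XAV group), or with FGF2 at 10 ng/ml plus activin at 10 ng/ml. The labels give all doses together for the whole set of samples, put 10% fetal bovine serum in the medium, and name no separate cultures behind the 3 arrays of a group. Their tissue entry reads embryonic stem cell for all samples while the source of the EpiSC samples is given as epiblast. Strain and PD0325901 differ between ESCs and both EpiSC groups, so in each comparison with ESCs they cannot be told apart from cell type. By the group names, XAV939 differs as well for CHIR/XAV against ESC, and CHIR99021, FGF2 and activin for FGF2/activin against ESC. The EpiSC groups differ from each other in XAV939, CHIR99021, FGF2 and activin together. The parts of these agents cannot be told apart either.

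Most nuclear receptors bind DNA as pairs, and many read copies of the short sequence AGGTCA. The retinoid, thyroid hormone, vitamin D, PPAR, LXR and FXR receptors pair with a retinoid X receptor (RXR) and recruit corepressors without ligand and coactivators with it. Steroid receptors pair with themselves, and the NR4A receptors act without a known hormone and are induced within minutes of a growth stimulus. In pluripotent cells the family is known chiefly for Esrrb, Nr5a2 and Nr0b1 on the naive side and for retinoic acid receptors as the route into differentiation.

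The labelled cell states matched their markers. The mean of 6 naive markers lay between 9.48 and 9.52 on the ESC arrays and between 5.56 and 5.77 on the EpiSC arrays, on the log2 expression scale used throughout. The mean of 5 primed markers lay between 6.84 and 6.87 in ESCs and between 9.38 and 9.50 in EpiSCs. Of the lists for other cells, that for trophoblast stood out: its 7 genes averaged 7.82 to 7.91 in FGF2/activin EpiSCs, 6.67 to 6.73 in CHIR/XAV EpiSCs and 6.68 to 6.70 in ESCs. In FGF2/activin EpiSCs 4 of the 7 were called higher than in ESCs (Krt8, Krt18, Eomes and Gata3, by 3.79, 3.95, 2.32 and 1.07) and 3 lower (Cdx2, Elf5 and Tfap2c, by -0.84, -0.36 and -1.78). Between the EpiSC groups 6 of the 7, all but Elf5, were lower in CHIR/XAV than in FGF2/activin. Levels of the feeder list stayed between 5.13 and 5.38, with Thy1 higher in CHIR/XAV EpiSCs (7.21) than in ESCs (5.44). The part of these cells in the results below was not tested, and in such bulk RNA a change in the share of cells and a change per cell cannot be told apart.

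A member was called changed when its limma p-value, Benjamini-Hochberg adjusted over all 19938 genes, was under 0.05. Between CHIR/XAV EpiSCs and ESCs 10 members rose and 10 fell, 47.6% of 42, where 46.7% of all genes were called (24.7% higher and 22.1% lower). Between FGF2/activin EpiSCs and ESCs 10 rose and 14 fell, 57.1% of the members against 61.3% of all genes (27.8% higher and 33.5% lower). Between the EpiSC groups 15 members were higher in CHIR/XAV and 5 were lower, again 47.6%, against 41.6% of all genes (20.5% higher and 21.1% lower). As a set, then, these receptors were called about as often as any gene, and their median changes of 0.03, -0.10 and 0.08 sat beside medians of -0.03, -0.08 and 0.05 over all genes.

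Against ESCs, 6 members rose in both EpiSC groups (Rxrg, Vdr, Ppard, Nr2c1, Nr3c1 and Pgr). Another 7 fell in both (Rara, Rarb, Rarg, Ppara, Nr1d1, Hnf4g and Nr2c2). Nr4a1 was the only one of the 42 called in opposite directions. Both comparisons use the same ESC arrays, so agreement between them is partly built in. The share of all genes called alike in both was not counted here, so these joint counts have no background. Changes of at least 2-fold (a log2 change of 1) were found in 7 members: Nr1h5, Rxrg, Nr5a1, Nr3c1, Pgr, Nr4a1 and Nr1d1. By comparison, these were 3 rises and no fall for CHIR/XAV against ESC (background 5.03% and 3.3% of all genes), 3 rises and 1 fall for FGF2/activin against ESC (6.66% and 3.45%), and 1 higher and 2 lower between the EpiSC groups (1.62% and 2.5%).

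**Figure D1:**
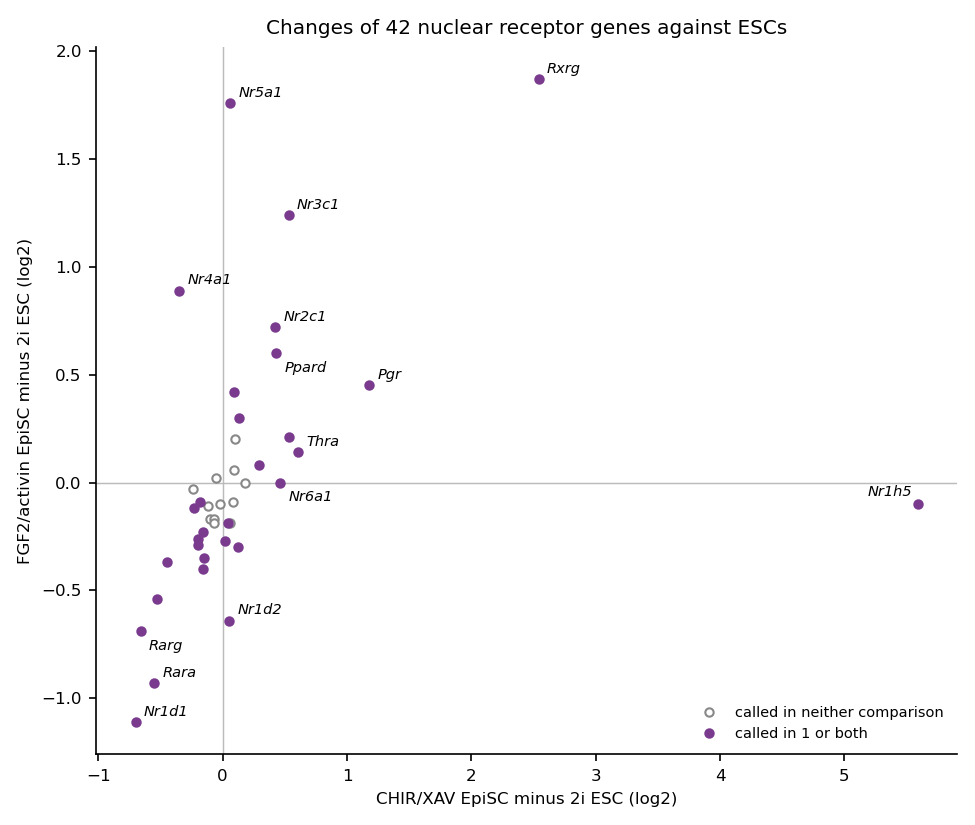
Log2 change of each of the 42 nuclear receptor genes from ESCs to CHIR/XAV EpiSCs (x axis) and from ESCs to FGF2/activin EpiSCs (y axis). Both axes share the ESC arrays. Filled points were called in 1 or both comparisons; Nr1h5 stands alone at 5.59 on the x axis and -0.10 on the y axis, and Nr5a1 at 0.06 and 1.76.

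A large part of the family was dim. Of the 42 members, 21 had a mean over the 9 arrays within the dimmest 40% of genes, which ends at 5.28, and their group means ran from 4.14 to 5.48. Detection calls were not used here, so such a value cannot be told from background. Vdr, Rarb, Ppara and Hnf4g, named above as moving alike in both EpiSC groups, are among these 21. No change in the 21 passed 0.54. Between FGF2/activin EpiSCs and ESCs 7 of them were called lower and 2 higher, where 40.9% of all dim genes were called lower and 5.79% higher; between the EpiSC groups 6 were called higher and 0 lower, where the dim genes had 17.8% and 3.67%. For CHIR/XAV against ESC the counts were 2 higher and 4 lower, with 7.32% and 14.8% of dim genes.

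**Figure D2:**
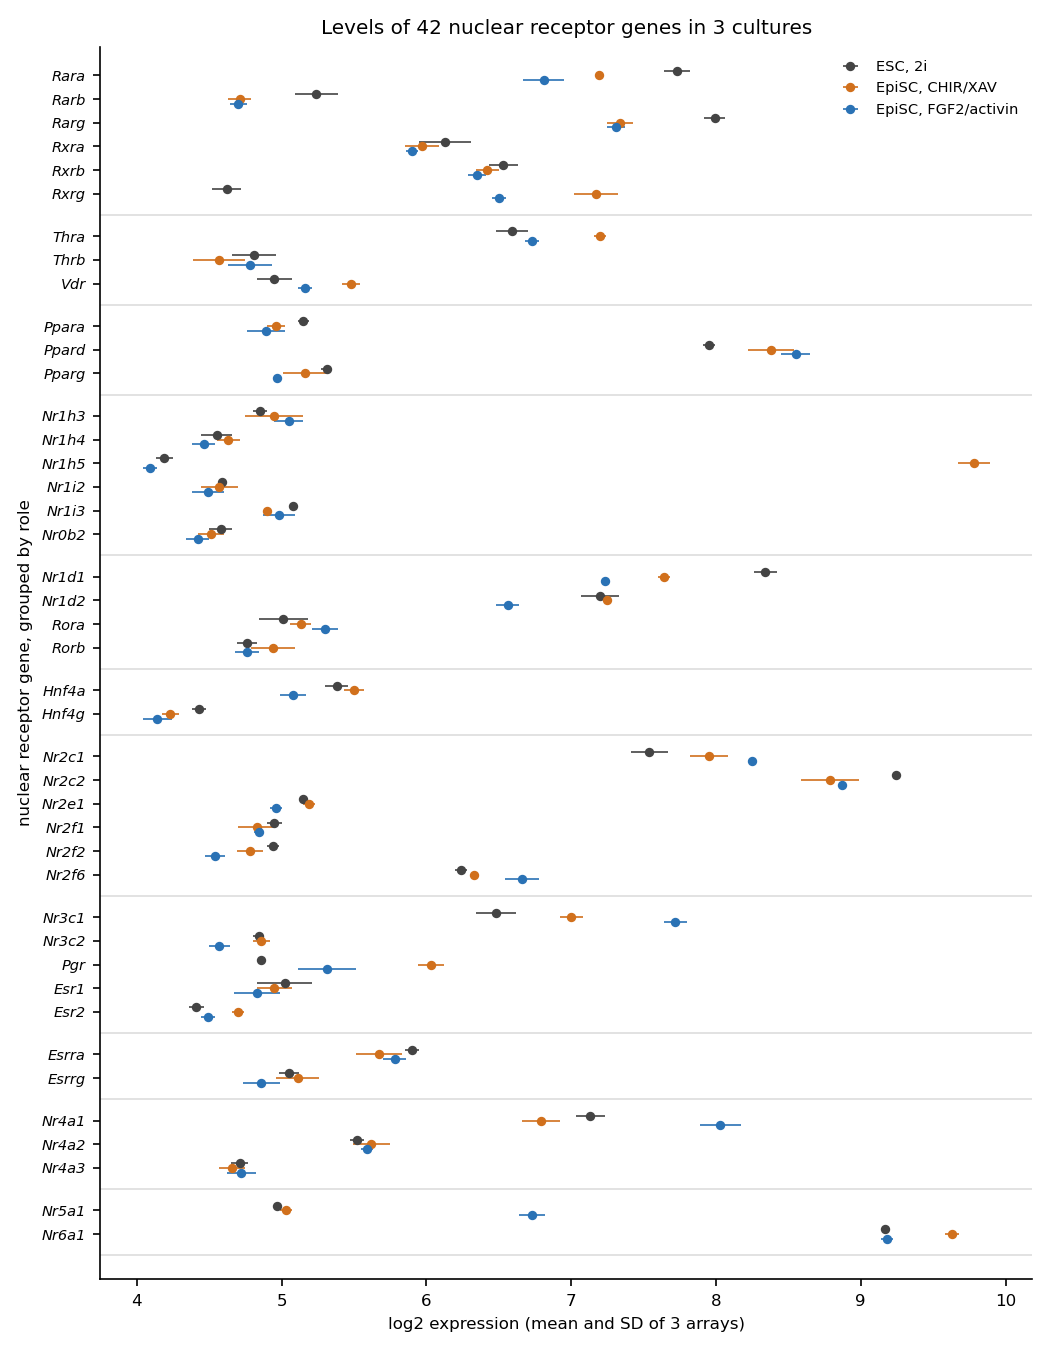
Log2 expression (x axis) of the 42 measured nuclear receptor genes (y axis), ordered by receptor role, with the mean and SD of 3 arrays for each of the 3 cultures. Levels of different genes come from different probes and are not comparable with each other; the largest SD in any group is 0.20.

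The retinoid receptors moved apart from one another. The 3 retinoic acid receptors, with Rarb dim, fell in both EpiSC groups, while the retinoid X receptor Rxrg rose in both. Rxrg measured 4.55, 4.59 and 4.74 on the ESC arrays, 7.08, 7.34 and 7.09 on the CHIR/XAV arrays and 6.55, 6.49 and 6.45 on the FGF2/activin arrays. The 3 groups did not overlap, and ESCs were lowest. The rise came to 2.54 on the log2 scale in CHIR/XAV EpiSCs (SE 0.08, 5.83-fold, limma adjusted p = 6.68e-12) and to 1.87 in FGF2/activin EpiSCs (SE 0.08, 3.66-fold, adjusted p = 1.34e-10). Between the EpiSC groups CHIR/XAV was higher by 0.67 (adjusted p = 1.75e-05). The ESC mean of 4.62 lies below the 5.28 that ends the dimmest 40% of genes, as do those of Pgr and Nr5a1 described later, and a fold over such a group understates the difference where that group is at background. Among the 20 genes around Rxrg on chromosome 1 the median changes against ESCs were 0.09 and -0.06.

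RefSeq lists a pair of start sites for Rxrg in GRCm38.p6. The 250 bases before the second of them (chr1:167618015-167618264, plus strand) are shown because they hold the receptor core motif AGGTCA, in capitals, with its first base 88 bases before the start. The probe set does not say from which start the transcripts came.
Rxrg: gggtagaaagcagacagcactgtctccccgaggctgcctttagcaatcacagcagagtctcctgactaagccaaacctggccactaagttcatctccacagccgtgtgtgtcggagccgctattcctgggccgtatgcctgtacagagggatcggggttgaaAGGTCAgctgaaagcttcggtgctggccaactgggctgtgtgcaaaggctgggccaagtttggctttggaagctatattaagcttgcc
Counted on both strands over windows of 300 bases, AGGTCA occurred in 16.3% of 32851 RefSeq promoters and in 10 of the 57 promoters of members. A match of 6 letters is a description of the window and no evidence of binding.

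The other RXR genes moved little. Rxra had group means of 6.13 in ESCs, 5.97 in CHIR/XAV and 5.90 in FGF2/activin EpiSCs, and only the difference of FGF2/activin from ESCs was called (-0.23, adjusted p = 0.0403 in limma). That call was lost without ESC replicate 1 or 2 or any FGF2/activin array, with adjusted p-values from 0.0634 to 0.16, and without ESC replicate 3 the CHIR/XAV difference was called as well. Rxrb was called in no comparison, with means of 6.53, 6.42 and 6.35; without ESC replicate 3 its FGF2/activin mean was called lower (adjusted p = 0.0212).

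Rara, the retinoic acid receptor alpha gene, fell in steps. ESC arrays read 7.68, 7.83 and 7.69, CHIR/XAV arrays 7.19, 7.21 and 7.17, and FGF2/activin arrays 6.65, 6.93 and 6.84, with no overlap between any pair of groups. The falls were -0.55 (adjusted p = 4.53e-05) and -0.93 (adjusted p = 1.65e-07), and CHIR/XAV was above FGF2/activin by 0.38 (adjusted p = 0.00136). Rarg, retinoic acid receptor gamma, dropped from 7.99 to 7.34 and 7.31, changes of -0.66 and -0.69 whose adjusted p-values were 2.63e-06 and 1.32e-06. Rarb, which is itself a well-known target of retinoic acid, fell from a mean of 5.24 to 4.71 and 4.70. Those levels are dim and cannot be told from background. Of all dim genes, 14.8% and 40.9% were called lower in these comparisons. Neither Rarg nor Rarb differed between the EpiSC groups beyond its spread, with 95% intervals of -0.12 to 0.19 and -0.16 to 0.18. Rarg lies on chromosome 15 among genes that also fell in CHIR/XAV EpiSCs: 13 of its 20 neighbours were called lower against ESCs, with a median of -0.34, and their part in its change was not tested. Against FGF2/activin those neighbours had a median of -0.54 while Rarg itself differed by 0.03.

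Of 15 measured genes of retinoid metabolism and response, 7 rose and 4 fell in CHIR/XAV EpiSCs, and 8 rose and 6 fell in FGF2/activin EpiSCs; 5 rose without FGF2/activin replicate 1. Rdh10, which oxidises retinol to retinal, went from 6.09 in ESCs to 8.0 and 9.49, rises of 1.90 and 3.40. Cyp26a1, the enzyme that degrades retinoic acid, rose by 0.27 to 4.31 in CHIR/XAV and by 1.68 to 5.71 in FGF2/activin EpiSCs. Dhrs3, which reduces retinal back to retinol, rose by 0.83 and 1.27. The binding proteins for retinoic acid parted: Crabp2 rose by 1.16 and 0.40, and Crabp1 fell by 0.23 in CHIR/XAV and by 2.22 in FGF2/activin EpiSCs, to 6.64 from 8.86. Stra8, a germ cell gene induced by retinoic acid, dropped by 1.56 and 1.61. The median of the list was 0.10 and 0.20 against ESCs.

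**Figure D3:**
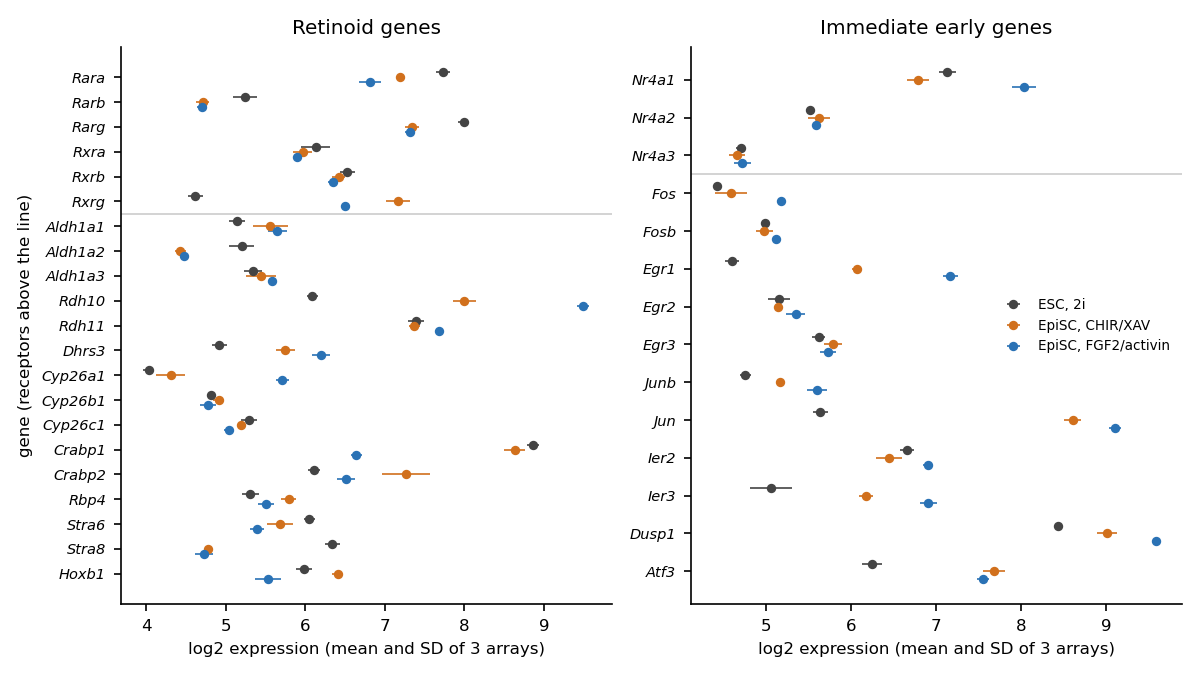
Log2 expression (x axis; mean and SD of 3 arrays) of the retinoid receptors with genes of retinoid metabolism and response (left) and of the NR4A receptors with immediate early genes (right), in the 3 cultures. Receptors stand above the line in each panel; Rdh10 reaches 9.49 in FGF2/activin EpiSCs, and Jun goes from 5.64 in ESCs to 9.11 there.

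Thra, the thyroid hormone receptor alpha gene, rose in CHIR/XAV EpiSCs alone among the called changes against ESCs. Its arrays gave 6.49, 6.71 and 6.57 in ESCs, 7.24, 7.19 and 7.17 in CHIR/XAV and 6.72, 6.79 and 6.68 in FGF2/activin EpiSCs. CHIR/XAV stood above both other groups with no overlap, by 0.61 over ESCs (adjusted p = 5.61e-06) and by 0.47 over FGF2/activin (adjusted p = 0.000101). The FGF2/activin group differed from ESCs by 0.14, with an interval from -0.01 to 0.29; without ESC replicate 2 that difference was called (adjusted p = 0.0347). Thrb, the beta gene, was called in no comparison, though without CHIR/XAV replicate 2 it was called lower there than in ESCs (adjusted p = 0.0325).

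Vdr, the vitamin D receptor gene, had means of 4.95, 5.48 and 5.16 in ESCs, CHIR/XAV and FGF2/activin EpiSCs. By its mean over the 9 arrays, 5.2, Vdr is among the dim genes, whose values cannot be told from background. It rose by 0.53 (adjusted p = 3.35e-05) and 0.21 (adjusted p = 0.0241) and was higher by 0.32 in CHIR/XAV than in FGF2/activin. The second rise was not called without ESC replicate 1 or 3 or FGF2/activin replicate 3 (adjusted p from 0.0763 to 0.087). Much of its surroundings on chromosome 15 moved with it. Of 20 neighbours 14 were called higher in CHIR/XAV EpiSCs than in ESCs, with a median of 0.67, and 12 were higher than in FGF2/activin EpiSCs, with a median of 0.43. The next genes, Hdac7 and Tmem106c, rose by 0.67 and 0.94. The part of that stretch in the change of Vdr was not tested. No gene rose among 7 measured targets of thyroid hormone and vitamin D in either comparison with ESCs; 3 fell in CHIR/XAV and 4 in FGF2/activin EpiSCs, and 1 in each when the dimmest 40% of genes were left out. Without CHIR/XAV replicate 3, 1 rose in each. Klf9, a thyroid hormone and glucocorticoid target, fell from 9.74 to 8.55 and 9.0.

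The PPAR genes, whose products sense fatty acids, were split. Ppard rose from 7.93, 8.0 and 7.92 in ESCs to 8.23, 8.36 and 8.54 in CHIR/XAV and 8.67, 8.52 and 8.48 in FGF2/activin EpiSCs. Both EpiSC groups lay wholly above ESCs and overlapped each other. The rises were 0.43 (adjusted p = 0.000724) and 0.60 (adjusted p = 2.88e-05), and the EpiSC groups differed by -0.18 with an interval of -0.36 to 0.01 (called without CHIR/XAV replicate 3, adjusted p = 0.0234). Ppara, prominent in liver fat oxidation, fell by 0.20 (adjusted p = 0.0445) and by 0.26 (adjusted p = 0.00786) at dim levels, with means of 5.15, 4.96 and 4.89. The first of those calls held only without CHIR/XAV replicate 1 or FGF2/activin replicate 3 among the arrays left out in turn; without the other 7 the adjusted p ran from 0.0503 to 0.137. Pparg, the fat cell receptor, fell by 0.35 in FGF2/activin EpiSCs (adjusted p = 0.00151) and differed by -0.15 in CHIR/XAV EpiSCs. It is a dim gene too, with means of 5.31, 5.16 and 4.97. Of all dim genes, 40.9% were called lower in FGF2/activin EpiSCs than in ESCs. Pparg was called between the EpiSC groups without CHIR/XAV replicate 3 (adjusted p = 0.00676). Without CHIR/XAV replicate 1 it was called lower in CHIR/XAV than in ESCs (adjusted p = 0.0472).

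Among 10 measured PPAR targets 5 fell and 2 rose in CHIR/XAV EpiSCs, and 6 fell and 2 rose in FGF2/activin EpiSCs. Cpt1a, which admits long-chain fatty acids to the mitochondrion, fell by 3.97 in CHIR/XAV and fell by 3.51 in FGF2/activin EpiSCs on the log2 scale, from 9.84 to 5.86 and 6.33. Pdk4, which restrains entry of pyruvate into the citric acid cycle, fell by 1.77 and 1.75, and Angptl4, a secreted lipase inhibitor, by 1.32 and 1.68. Plin2, a coat protein of lipid droplets, rose by 0.65 and 2.33, and Acadl, an enzyme of fatty acid oxidation, by 1.56 and 1.38. Their median changes were -0.25 and -0.50.

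Nr1h5 showed the largest change of any of the 42 receptors. It encodes FXR beta, a sterol-sensing relative of the bile acid receptor FXR that is intact in mice and a pseudogene in humans. ESC arrays measured 4.17, 4.14 and 4.26, CHIR/XAV arrays 9.66, 9.79 and 9.88, and FGF2/activin arrays 4.12, 4.03 and 4.12. Every CHIR/XAV array was above every other array by over 5 log2 units, and the other groups sat at the dim end of the scale. The rise over ESCs was 5.59 (SE 0.07, 48.1-fold, limma adjusted p = 1.83e-15) and that over FGF2/activin EpiSCs 5.69 (SE 0.07, 51.6-fold, adjusted p = 1.94e-15). Ordered from the largest rise down, with falls not counted by their size, it ranked 3 of 19938 genes in the first comparison and 2 in the second. FGF2/activin EpiSCs differed from ESCs by -0.10, with an interval of -0.26 to 0.05. Where the dim groups are at background, the fold change understates the difference.

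The genes on either side of Nr1h5 on chromosome 3 did not share its rise. Sycp1, a gene of the meiotic synaptonemal complex, fell by 1.14 in CHIR/XAV and by 1.36 in FGF2/activin EpiSCs. Sike1, on the other side, rose by 0.45 and 0.39. Over the 20 nearest genes the change from ESCs to CHIR/XAV EpiSCs ran from -1.98 to 0.89 with a median of -0.02, and against FGF2/activin EpiSCs from -1.41 to 0.33 with a median of -0.02. In contrast with Vdr, the surrounding genes thus gave medians near 0.

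**Figure D4:**
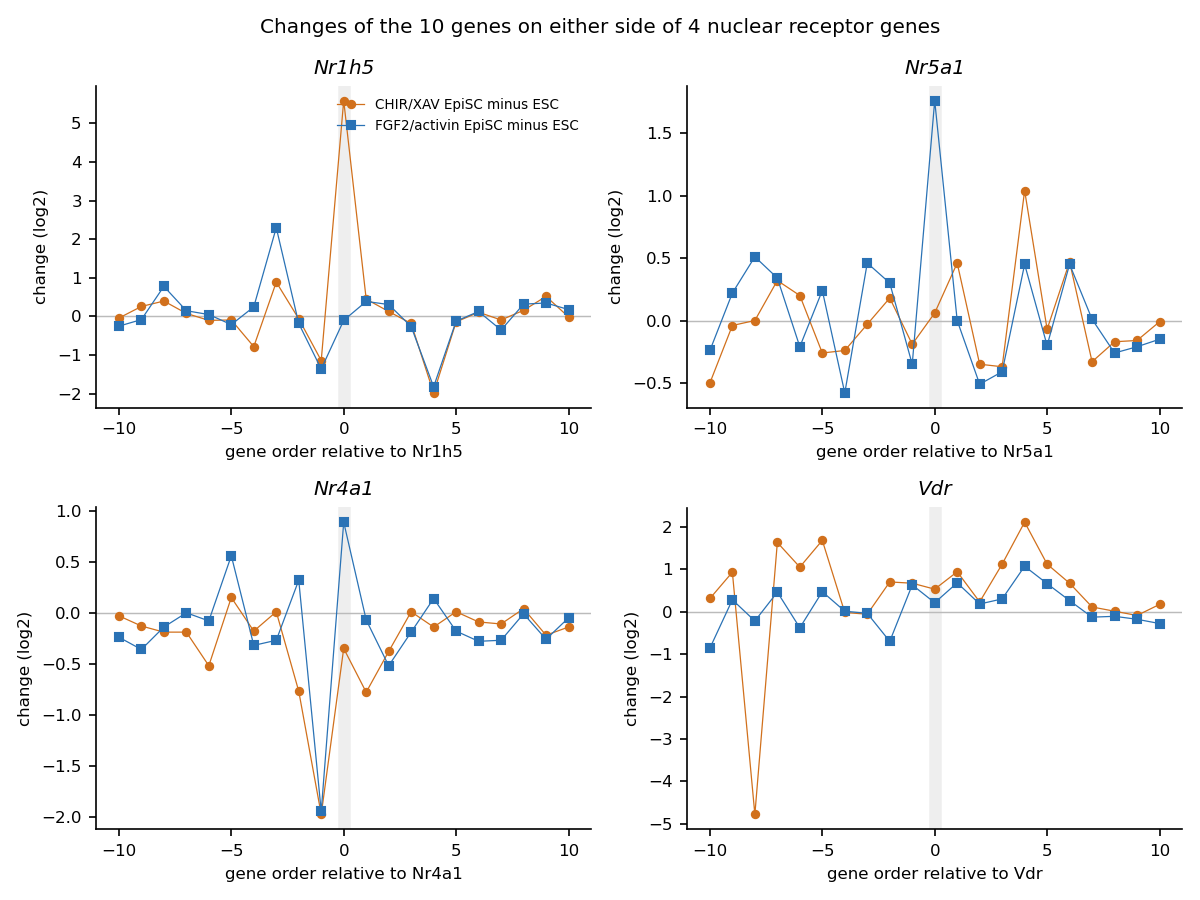
Log2 change against ESCs (y axis) of the 10 genes on either side of Nr1h5, Nr5a1, Nr4a1 and Vdr, in gene order (x axis, the receptor at 0), for CHIR/XAV (circles) and FGF2/activin EpiSCs (squares). Nr1h5 (5.59) and Nr5a1 (1.76) each rise above all of their neighbours in 1 culture, while 14 of 20 neighbours of Vdr are called higher in CHIR/XAV EpiSCs.

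The 250 bases before the RefSeq start of Nr1h5 (GRCm38.p6, chr3:102964134-102964383, minus strand) are given because this promoter belongs to the largest change among the receptors. They stand in lower case, since no searched motif was found on either strand.
Nr1h5: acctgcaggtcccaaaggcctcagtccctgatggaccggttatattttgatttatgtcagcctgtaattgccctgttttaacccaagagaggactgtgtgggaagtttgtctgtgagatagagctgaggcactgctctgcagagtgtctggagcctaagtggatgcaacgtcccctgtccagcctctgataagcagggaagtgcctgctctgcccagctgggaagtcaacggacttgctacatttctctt
Besides AGGTCA, the search covered the E-box CACGTG, found in 7.15% of all promoters, the full CREB site TGACGTCA, in 1.79%, and its core TGACG, in 20.8%. It also covered the AP-1 site TGANTCA, in 7.81%, the TATA box TATAAA, in 13.6%, and the TCF/LEF core CTTTGAT, in 3.73%. The last of these was in 1 of the 57 member promoters. Absence from this window says only that these letters are not in it.

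The other sterol and xenobiotic receptors were dim and nearly flat. Nr1h3 (LXR alpha), Nr1h4 (FXR), Nr1i2 (PXR) and Nr0b2 (SHP) were called in no comparison, with group means from 4.42 to 5.05. In FGF2/activin EpiSCs against ESCs, Nr1h3 was called higher without CHIR/XAV replicate 1 (adjusted p = 0.0265) and Nr0b2 lower without ESC replicate 1 or FGF2/activin replicate 3 (0.0399 at most). Nr1i3, the CAR gene, fell by 0.18 in CHIR/XAV EpiSCs (adjusted p = 0.0481), a call that was lost without 8 of the 9 arrays in turn, all but FGF2/activin replicate 2 (adjusted p from 0.0526 to 0.114). Of 7 measured FXR targets 1 rose in CHIR/XAV EpiSCs and none fell: Fgf15, a growth factor gene induced by FXR in the intestine, went from 5.62 to 6.46 in CHIR/XAV, a rise of 0.84, and was at 5.86 in FGF2/activin EpiSCs. In FGF2/activin EpiSCs 2 fell and none rose, namely the bile acid transporter genes Abcb11, by 0.18 (adjusted p = 0.0294), and Slc51a, by 0.27 (adjusted p = 0.00399). Both are dim, with means over the 9 arrays of 4.45 and 4.56. Of all dim genes, 40.9% were called lower in this comparison. In FGF2/activin EpiSCs 1 target fell without ESC replicate 3 or FGF2/activin replicate 1 or 3. There 1 rose without CHIR/XAV replicate 1 or 2 or FGF2/activin replicate 1. Slc51a was also 0.27 higher in CHIR/XAV than in FGF2/activin EpiSCs. The bile acid enzymes and transporters Cyp7a1, Cyp8b1, Slc10a1 and Slc51b were called in no comparison, with means from 4.09 to 4.83.

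Of 12 LXR targets 1 rose and 6 fell in each EpiSC group against ESCs. Abcg1, which exports cholesterol, rose by 0.96 in CHIR/XAV EpiSCs, from 6.19 to 7.16, and was there 1.01 above FGF2/activin EpiSCs. Abca1, an exporter of the same class, fell by 1.11 and 0.69, and the phospholipid transfer protein gene Pltp by 1.14 and 0.60. The gene that rose in FGF2/activin EpiSCs was Scd2, by 0.17, and none rose there without any of 4 arrays (ESC replicates 2 and 3, FGF2/activin replicates 1 and 2).

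Nr1d1 and Nr1d2 encode the REV-ERB repressors of the circadian clock, and they moved differently. Nr1d1 read 8.34, 8.26 and 8.42 in ESCs, 7.62, 7.61 and 7.69 in CHIR/XAV EpiSCs and 7.23, 7.22 and 7.24 in FGF2/activin EpiSCs. The 3 groups were fully separate. It fell by 0.70 (SE 0.06, adjusted p = 5.17e-07) and by 1.11 (SE 0.06, 2.16-fold, adjusted p = 2.82e-09), and was 0.41 higher in CHIR/XAV than in FGF2/activin (adjusted p = 0.000171). Nr1d2 measured 7.09, 7.35 and 7.17 in ESCs, 7.24 on 2 CHIR/XAV arrays and 7.26 on the other, and 6.63, 6.58 and 6.48 in FGF2/activin EpiSCs. Here ESCs and CHIR/XAV EpiSCs overlapped, with a difference of 0.05 (interval -0.12 to 0.21), and FGF2/activin lay below both, by -0.64 against ESCs (adjusted p = 5.8e-06). Rora, which activates the sites that REV-ERB proteins repress, rose by 0.30 in FGF2/activin EpiSCs. Without ESC replicate 2 it was also called higher in CHIR/XAV EpiSCs (adjusted p = 0.0401). Rorb was called in no comparison. Without CHIR/XAV replicate 3, however, CHIR/XAV was called higher for Rorb than both other groups (adjusted p = 0.0144 and 0.0152). Both Rora and Rorb are among the dim genes, whose values cannot be told from background.

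Nr1d1 and Thra are adjacent on chromosome 11 and overlap on opposite strands. The sources used here do not give the strand of their probes. Whether the probes of one gene also pick up the other's transcript was not tested. In CHIR/XAV EpiSCs against ESCs Thra rose by 0.61 and Nr1d1 fell by 0.70; between the EpiSC groups both were higher in CHIR/XAV, by 0.47 and 0.41.

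Of 14 measured clock genes 9 rose and 3 fell in CHIR/XAV EpiSCs, and 7 rose and 5 fell in FGF2/activin EpiSCs, with medians of 0.43 and 0.19. Clock, which activates the loop, fell from 8.99 to 7.58 and 7.57. Its partner Arntl was at 7.30 and 7.28 in ESCs and CHIR/XAV EpiSCs and rose by 1.02 to 8.32 in FGF2/activin EpiSCs. Bhlhe40, a repressor of the same promoters, rose by 0.78 and 2.61. Ciart, a further repressor, rose by 0.53 in CHIR/XAV and fell by 0.50 in FGF2/activin EpiSCs. It had 2 probe sets, and these values are those of the brighter.

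The HNF4 genes, markers of liver and visceral endoderm, were dim or nearly so. Hnf4a had means of 5.38, 5.5 and 5.08, with FGF2/activin EpiSCs lower than ESCs by 0.30 and than CHIR/XAV EpiSCs by 0.42. Hnf4g fell by 0.20 and 0.29, the first of which was lost without ESC replicate 1 or 3 or CHIR/XAV replicate 2 or 3 (adjusted p from 0.053 to 0.114). The endoderm list averaged 4.95 to 5.17 over all arrays.

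Among the orphan receptors of subfamily 2, the TR2 and TR4 genes diverged. Nr2c1 (TR2) read 7.38, 7.64 and 7.59 in ESCs, 7.86, 7.90 and 8.10 in CHIR/XAV and 8.24, 8.28 and 8.23 in FGF2/activin EpiSCs, which left all groups separate. The rises were 0.42 (adjusted p = 0.000774) and 0.72 (adjusted p = 4.57e-06). Nr2c2 (TR4), which binds DNA as a pair with TR2, fell from 9.24 to 8.79 and 8.87, by 0.45 (adjusted p = 0.000583) and 0.37 (adjusted p = 0.00238). Its CHIR/XAV arrays spread widely, at 8.56, 8.87 and 8.94.

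The COUP-TF genes are regulators of mesoderm and neural differentiation. Nr2f2 fell by 0.40 in FGF2/activin EpiSCs (adjusted p = 0.000195) and Nr2f1 was called in no comparison, both at dim levels. Nr2f2 was also 0.24 higher in CHIR/XAV than in FGF2/activin EpiSCs, which was lost without FGF2/activin replicate 2 (adjusted p = 0.0587), and it was called lower in CHIR/XAV than in ESCs without CHIR/XAV replicate 1 (adjusted p = 0.0462). Nr2f6, their more distant relative, rose by 0.42 in FGF2/activin EpiSCs, from 6.24 to 6.66 (adjusted p = 0.000154), and was 0.33 lower in CHIR/XAV. Nr2e1, the neural stem cell receptor TLX, fell by 0.19 from ESCs (mean 5.15) to FGF2/activin EpiSCs (mean 4.96). That call was lost without FGF2/activin replicate 1 or 2 (adjusted p = 0.0557 at most). Nr2e1 is among the dim genes, of which 40.9% were called lower in this comparison.

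Of the steroid receptors, the glucocorticoid receptor gene Nr3c1 changed most in FGF2/activin EpiSCs. Its ESC arrays were at 6.54, 6.58 and 6.32, its CHIR/XAV arrays at 6.91, 7.07 and 7.03, and its FGF2/activin arrays at 7.68, 7.66 and 7.81. No pair of groups overlapped. The rise was 1.24 in FGF2/activin EpiSCs (SE 0.08, 2.36-fold, adjusted p = 9.5e-09) and 0.53 in CHIR/XAV EpiSCs (adjusted p = 8.52e-05), a difference of -0.71 between them (adjusted p = 7.13e-06). Under the alternatives tried the first of these ran from 0.99 to 1.30. Nr3c2, the mineralocorticoid receptor gene, was dim and 0.27 lower in FGF2/activin EpiSCs than in ESCs.

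Of 12 measured targets of these receptors 2 rose and 6 fell in CHIR/XAV EpiSCs and 2 rose and 7 fell in FGF2/activin EpiSCs, with medians of -0.14 and -0.40. The rises in CHIR/XAV were 4 without CHIR/XAV replicate 1. The metallothionein genes Mt1 and Mt2 fell by 2.06 and 1.12 in FGF2/activin EpiSCs. Sgk1, a kinase of salt transport, fell by 1.29 and 0.44, and Fkbp5, a chaperone that restrains the receptor, by 0.43 in FGF2/activin EpiSCs only, where its mean was 7.68 against 8.11. Cebpd rose by 0.82 and 0.87, and Errfi1, an inhibitor of the EGF receptor, by 0.93 in FGF2/activin EpiSCs. Pdk4 and Klf9, both named above, count here as well.

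Pgr, the progesterone receptor gene, was highest in CHIR/XAV EpiSCs. It read 4.85, 4.84 and 4.88 in ESCs, 5.96, 5.99 and 6.14 in CHIR/XAV EpiSCs and 5.16, 5.23 and 5.54 in FGF2/activin EpiSCs. The groups were separate, with the widest spread in FGF2/activin (SD 0.20). It rose by 1.18 (SE 0.09, 2.26-fold, adjusted p = 7.93e-08) and 0.45 (adjusted p = 0.000756), and CHIR/XAV exceeded FGF2/activin by 0.72 (adjusted p = 2.02e-05). Esr1, the estrogen receptor alpha gene that drives Pgr in the uterus, was called in no comparison, with means of 5.02, 4.95 and 4.83; without ESC replicate 2 or FGF2/activin replicate 3 it was called lower in FGF2/activin than in ESCs (adjusted p from 0.0239 to 0.0435). Esr2 rose by 0.29 in CHIR/XAV EpiSCs, at a dim mean of 4.70 (adjusted p = 0.00187). Its excess of 0.20 over FGF2/activin was lost without CHIR/XAV replicate 1 or 2 or FGF2/activin replicate 1 (adjusted p = 0.0853 at most). Of 7 estrogen and progesterone targets, Pgr among them, 2 rose and 2 fell in CHIR/XAV and 4 rose and 2 fell in FGF2/activin EpiSCs. The falls in CHIR/XAV were 1 without ESC replicate 1 or 3, CHIR/XAV replicate 2 or 3, or any FGF2/activin array, and those in FGF2/activin were 1 without ESC replicate 1 or 3 or FGF2/activin replicate 2 or 3. Greb1, an estrogen-induced gene, rose by 0.70 and 1.25.

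The estrogen-related receptors other than Esrrb changed little. Esrra, which governs mitochondrial genes, fell by 0.23 in CHIR/XAV EpiSCs, from 5.90 to 5.67 (adjusted p = 0.0343), a call lost without ESC replicate 1 or 3 or CHIR/XAV replicate 1 or 2 (adjusted p from 0.0761 to 0.144). Esrrg, a dim gene, was called only between the EpiSC groups, 0.25 higher in CHIR/XAV (adjusted p = 0.0352). That call was lost without replicate 1 or 2 of either EpiSC group (adjusted p from 0.0642 to 0.163), and without FGF2/activin replicate 3 Esrrg was called lower there than in ESCs (adjusted p = 0.0393). For reference, their relative Esrrb fell from 10.08 in ESCs to 4.93 and 4.72.

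The NR4A genes are immediate early genes that growth factors and cAMP switch on, and of the 3 only Nr4a1 was called. It measured 7.12, 7.04 and 7.23 in ESCs, 6.84, 6.88 and 6.64 in CHIR/XAV EpiSCs and 8.10, 8.12 and 7.86 in FGF2/activin EpiSCs. FGF2/activin lay above and CHIR/XAV below ESCs, without overlap. The changes from ESCs were 0.89 (SE 0.09, 1.86-fold, adjusted p = 1e-06) and -0.35 (adjusted p = 0.00546), and the EpiSC groups differed by -1.24 (SE 0.09, 2.36-fold, adjusted p = 7.45e-08). Nr4a2 had means of 5.52, 5.62 and 5.59 and Nr4a3 of 4.71, 4.66 and 4.72. Their intervals reached from -0.22 to 0.25 over the 3 comparisons. In the measured values of Nr4a2, that leaves out a change of the size seen in Nr4a1 between the EpiSC groups. Its means lie near the array medians of 5.57 to 5.65, and detection calls were not used. For its transcript the limit holds only if the probe set detected it. Nr4a3 was among the dim genes, whose values cannot be told from background. Its interval therefore does not limit a change in its transcript.

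Of 11 immediate early genes 6 rose and 1 fell in CHIR/XAV EpiSCs, 9 rose in FGF2/activin EpiSCs with none lower, and 7 were lower in CHIR/XAV than in FGF2/activin with none higher. The fall, of Ier2 by 0.22, was lost without any of 5 arrays (ESC replicates 1 and 2, CHIR/XAV replicates 2 and 3, FGF2/activin replicate 2). Medians were 0.41, 0.84 and -0.46. Jun, a subunit of AP-1, rose by 2.97 and 3.46, from 5.64 to 8.61 and 9.11. Egr1, a zinc finger gene induced through ERK, rose by 1.48 and 2.57 and was 1.10 lower in CHIR/XAV than in FGF2/activin EpiSCs. Ier3 rose by 1.12 and 1.85. Unlike Nr4a1, then, Jun, Egr1 and Ier3 were higher than ESCs in both EpiSC cultures. Ier2 had the directions of Nr4a1, with a rise of 0.25 in FGF2/activin EpiSCs (limma adjusted p = 0.0182) beside its fall in CHIR/XAV EpiSCs.

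The 3 NR4A promoters are shown side by side because they share a feature that the values do not: each has 4 copies of TGACG, the core of the site bound by the cAMP-responsive factor CREB. Capitals mark TGACG, or CGTCA where it lies on the other strand, within the 250 bases before the RefSeq start in GRCm38.p6. They lie at chr15:101266596-101266845 (plus strand), chr2:57124004-57124253 (minus) and chr4:48045055-48045304 (plus), in the order printed.
Nr4a1: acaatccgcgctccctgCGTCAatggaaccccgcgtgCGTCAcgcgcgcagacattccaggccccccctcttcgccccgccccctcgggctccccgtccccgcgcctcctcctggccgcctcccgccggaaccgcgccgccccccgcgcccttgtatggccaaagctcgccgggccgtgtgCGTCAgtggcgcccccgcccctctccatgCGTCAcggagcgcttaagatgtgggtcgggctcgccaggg
Nr4a2: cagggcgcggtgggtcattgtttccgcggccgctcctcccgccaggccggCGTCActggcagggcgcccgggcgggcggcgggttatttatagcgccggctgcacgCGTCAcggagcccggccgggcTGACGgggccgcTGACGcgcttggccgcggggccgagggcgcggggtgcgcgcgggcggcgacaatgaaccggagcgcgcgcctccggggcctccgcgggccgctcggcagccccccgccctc
Nr4a3: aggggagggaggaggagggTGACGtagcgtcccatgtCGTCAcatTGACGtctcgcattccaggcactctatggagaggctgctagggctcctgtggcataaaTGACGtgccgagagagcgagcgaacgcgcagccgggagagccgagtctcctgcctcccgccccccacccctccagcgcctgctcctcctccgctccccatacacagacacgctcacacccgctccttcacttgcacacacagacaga
In Nr4a1 all 4 copies are on the minus strand, with first bases 233, 213, 69 and 40 bases before the start. The farthest copy in Nr4a2 is at 200 and in Nr4a3 at 231. Over windows of 300 bases, 4 or more copies occurred in 76 of 32851 promoters (0.231%), and at least 1 copy in 20.8%. Of 57 promoters of members, these 3 were the ones with 4 or more. That count of 4 was chosen after the promoters had been read. With the same motif count, Nr4a2 and Nr4a3 were not called and Nr4a1 was.

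On chromosome 15 the genes around Nr4a1 did not rise with it in FGF2/activin EpiSCs: 2 of 20 were called higher and 9 lower, with a median of -0.19. Next to it, Grasp fell by 1.98 and 1.95. In CHIR/XAV EpiSCs the 20 neighbours had a median of -0.14 with 6 lower and 0 higher, among them Acvr1b and Atg101 at -0.77 and -0.78; their part in the fall of Nr4a1 there was not tested.

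Nr5a1 and Nr6a1 are next to each other on chromosome 2, and each was raised in a different EpiSC culture. Nr5a1 encodes SF-1, the master regulator of adrenal and gonadal steroid synthesis and the closest relative of Nr5a2. Its arrays were at 4.97, 4.98 and 4.95 in ESCs, 5.07, 5.01 and 5.01 in CHIR/XAV EpiSCs and 6.67, 6.84 and 6.69 in FGF2/activin EpiSCs. FGF2/activin stood apart from both other groups, which lay at dim levels close together. The rise over ESCs was 1.76 (SE 0.07, 3.39-fold, adjusted p = 2.14e-11), and CHIR/XAV was lower than FGF2/activin by 1.70 (3.26-fold, adjusted p = 1.21e-10). CHIR/XAV and ESCs differed by 0.06, with an interval of -0.09 to 0.20. Of the 7 trophoblast markers, Krt8 (11.88), Krt18 (11.40), Eomes (8.72) and Gata3 (6.07) were also highest in FGF2/activin EpiSCs, while Cdx2 (5.14), Elf5 (4.53) and Tfap2c (7.26) were lower there than in ESCs; their part in the result was not tested. Nr5a2, the naive network member, was at 9.54 in ESCs and at 4.59 and 4.5 in the EpiSC groups.

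Nr6a1 encodes GCNF, which represses Pou5f1 as cells leave pluripotency. It read 9.14, 9.18 and 9.21 in ESCs, 9.58, 9.63 and 9.67 in CHIR/XAV EpiSCs and 9.13, 9.19 and 9.20 in FGF2/activin EpiSCs. Only CHIR/XAV was set apart, by 0.46 over ESCs (adjusted p = 2.67e-05) and 0.45 over FGF2/activin (adjusted p = 4.28e-05), while the last group and ESCs differed by 0.00 (interval -0.13 to 0.14). Pou5f1 itself had means of 11.33, 11.59 and 11.68. Around Nr5a1 the 20 neighbours had median changes of -0.06 and -0.07 against ESCs, and none rose in FGF2/activin EpiSCs by more than 0.51.

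**Figure D5:**
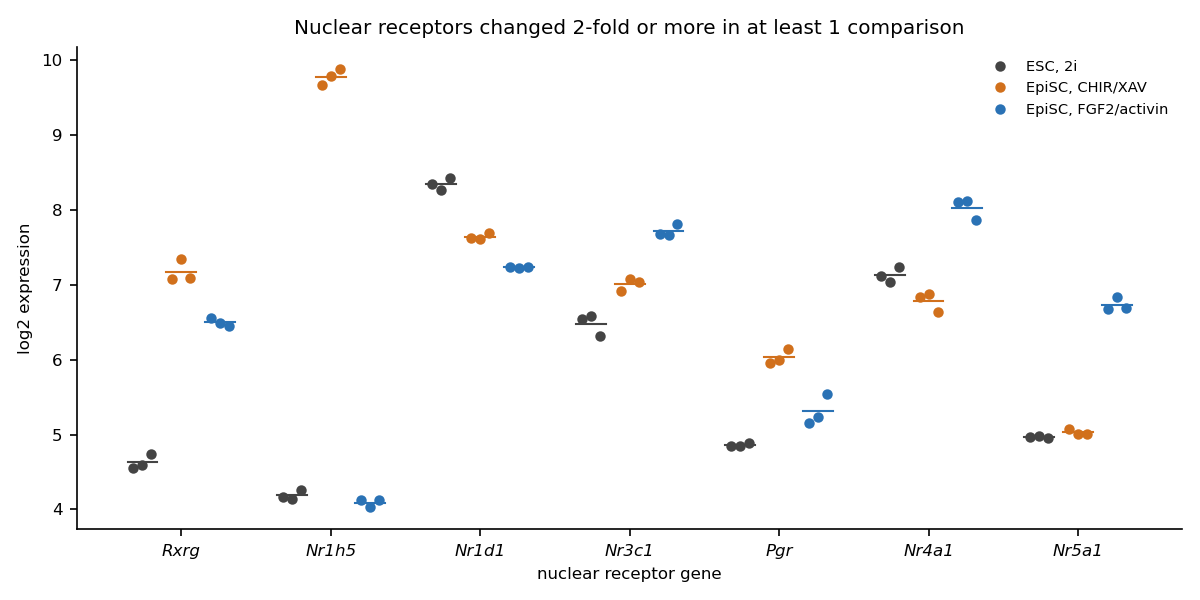
Log2 expression (y axis) of the 7 receptors that changed at least 2-fold in 1 or more comparisons (x axis), with 1 point per array and a line at the mean of 3. Nr1h5 reads 9.66 to 9.88 in CHIR/XAV EpiSCs and 4.03 to 4.26 elsewhere, Nr5a1 is raised in FGF2/activin EpiSCs, and Nr1d1 falls from ESCs through CHIR/XAV to FGF2/activin.

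In all, 11 of the 42 receptors were called in no comparison with all 9 arrays: Rxrb, Thrb, Nr1h3, Nr1h4, Nr1i2, Nr0b2, Rorb, Nr2f1, Esr1, Nr4a2 and Nr4a3. The share of all genes called in no comparison was not counted here, so this count has no background. The 95% intervals of these 11 receptors reached at most to -0.47, for Thrb between CHIR/XAV EpiSCs and ESCs. Their highest limit was 0.40, for Nr1h3 between FGF2/activin EpiSCs and ESCs. A change of 2-fold on this scale lies outside all of these intervals. Of the 11, 9 were among the dim genes, all but Rxrb and Nr4a2. Where a value is background, its interval does not limit a change in the transcript, and detection calls were not used for any of the 11.

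Coregulators, through which all these receptors act, changed in both directions. Of 16 coactivator genes 4 rose and 7 fell in CHIR/XAV EpiSCs and 4 rose and 6 fell in FGF2/activin EpiSCs, with medians of -0.04 and 0.02. Ncoa3, a histone acetyltransferase recruited by ligand-bound receptors, fell from 10.22 to 8.96 and 9.53, and Ppargc1b, a coactivator of mitochondrial genes, from 6.31 to 5.86 and 5.33. Ncoa7 rose by 0.49 and 1.21. Of 12 measured corepressor genes 3 rose and 5 fell in each EpiSC group against ESCs. Nrip1, a corepressor that binds ligand-bound receptors, rose by 0.20 and 1.15, and Hdac3, the deacetylase of the NCoR complex, by 0.42 and 0.77, while the LSD1 partner Rcor2 fell by 0.92 and 1.07.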

How the data were processed

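RNA from 9 samples was measured on a single-colour Affymetrix array. Per the submitters' processing notes, the authors summarised each probe set by RMA in Partek, and the deposited numbers are on a log2 scale; the sources used here give no version. Array medians ran from 5.57 to 5.65. Of 35399 probe sets, 21789 carried 1 gene symbol, and the brightest probe set was kept for each of 19938 genes; each of the 42 members had 1. Names and promoter sequences came from RefSeq tables of GRCm38.p6, with promoters for 38 members. All 9 arrays entered 1 limma fit (version 3.58.1, R 4.3.3; lmFit, contrasts.fit, eBayes), with no covariate, no filter and Benjamini-Hochberg adjustment over 19938 genes. Groups came from the sample titles. Precision is limited by the number of arrays, and p-values measure the spread between these samples, which may be technical.

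Members and gene lists were chosen with earlier results of these data known. Every array is given for members called with a log2 change of at least 1, and for others chosen after their values were seen; up to 4 called genes of a list with the largest changes may be named, and those named beyond that were chosen after their values were seen. Neighbours are the 10 genes on either side in RefSeq order. On simulated data for CHIR/XAV EpiSCs against ESCs (19938 genes) the fit recovered 78.5% of 65 genes changed by 0.5 log2 units. It recovered 96.6% of 59 changed by 1 and 100% of 76 changed by 2, with 7 false calls. The simulation used normal noise and changed only those genes, a far smaller share than the 46.7% called in the data. Its rates therefore need not hold for these data. Alternatives were each array left out, a replicate block, quantile normalization, median centring, 2 groups fitted alone, robust variance with a trend, the mean of a gene's probe sets and a filter on the dimmest 40% of genes; centring on the tested genes was added after seeing the data.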

Additional observations from a re-analysis of the deposited data

How the results depend on the processing

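The called changes of the 7 members with 2-fold changes kept their calls and directions in all 17 alternatives. With arrays centred on the tested genes, 2 of their uncalled differences moved: that of Nr1h5 between FGF2/activin EpiSCs and ESCs was called (-0.18), and that of Nr5a1 between CHIR/XAV EpiSCs and ESCs went from 0.06 to -0.04, uncalled in both. No called result reversed. Counts of called members moved most among small falls. Of the 10 members lower in CHIR/XAV EpiSCs than in ESCs, 6 were called without the dimmest 40% of genes, which removes dim members from the test, and 6 after median centring over all probe sets; with 1 array left out the count was 6 to 10, lowest without ESC replicate 1. It was 16 with arrays centred on the tested genes, a setting added after seeing the data that moved the median change of all genes from -0.03 to -0.13, and from -0.08 to -0.16 for FGF2/activin EpiSCs. That setting also moved the share of calls that were higher from 52.8% to 35.0% for CHIR/XAV against ESC and from 45.3% to 35.0% for FGF2/activin against ESC, and 2 coactivators and 1 corepressor then rose in CHIR/XAV EpiSCs. Without the dimmest genes, 8 members rather than 14 were lower in FGF2/activin EpiSCs than in ESCs, with 59.6% of calls higher, and 9 rather than 15 were higher in CHIR/XAV than in FGF2/activin EpiSCs. After median centring 7 coactivators rose in FGF2/activin EpiSCs, 4 glucocorticoid targets rose in CHIR/XAV EpiSCs, and the cause was not tested. Same-numbered deviations from group means correlated between -0.07 and 0.24, highest for replicate 3 of ESCs and FGF2/activin EpiSCs. These values show no strong pairing by replicate number, and weak pairing cannot be told from none. With a replicate block 8, 13 and 5 members were lower in the 3 comparisons in the order of the report, and 10, 10 and 14 higher. Fold changes over a dim group, those of Nr1h5, Rxrg, Nr5a1 and Pgr among them, are limited by background.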
